A study of Arabidopsis with 12 samples.

Results

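The response of wild-type Arabidopsis thaliana seedlings to water deficit was followed in 6 of the 12 arrays of the series, those of Col-0, the standard laboratory accession. Col-0 seedlings grew for 5 days at 22 °C, spent a further 72 h on medium with 0.8% agar (control, 3 arrays) or 2% agar (water deficit, 3 arrays) and were taken whole at 8 days of age. For these Col-0 groups the labels name no mutation, transgene or chemical. The other 6 arrays are 3 control and 3 water deficit arrays of tori 35-7, a genotype that the labels do not describe further, on the same media; they entered the model that sets the spread and served for comparison. All genes with a probe set annotated to 1 gene were members, 16548 in all.

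When water is scarce, plant cells accumulate abscisic acid, and this hormone, together with cold-type signals, turns on genes for small hydrophilic proteins that protect membranes and enzymes as the cell dries. Growth then depends on wall loosening by expansins, on the light-harvesting apparatus and on nutrient uptake, each with regulators of its own. Iron uptake is governed by basic helix-loop-helix (bHLH) transcription factors that are themselves induced when iron is short, and IRONMAN peptides shield some of these factors from degradation. Small CC-type glutaredoxins, a land plant class of redox proteins, respond to nitrogen supply.

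Values are log2 levels, and a difference is water deficit minus control on that scale, so that a difference of 1 is a doubling. Means of levels carry the SD over 3 arrays, and differences carry the standard error of the limma model fitted to all 12 arrays. A gene was called when limma's p, adjusted by Benjamini-Hochberg over the 16548 genes, was under 0.05. Array medians lay between 3.06 and 3.19 and the median gene had a level of 2.98. Col-0 water deficit replicate 1 stood apart. Its interquartile range was 2.56 against 2.68 to 3.08 on the other 11 arrays, and its median correlation with them was 0.950 against 0.971 to 0.980. The 2.68 was that of tori 35-7 control replicate 1, the other array of narrow spread. Across genes, the deviations of both arrays from their group means had a correlation of 0.403. Compared with the mean of the other 2 water deficit arrays, its median gene was 0.22 higher among the 4137 genes with the lowest levels and 0.28 lower among the 4137 with the highest. Called genes and list counts are therefore given with and without this array, called replicate 1, and other named genes where leaving it out changed the call or turned a difference of over 0.1. The label of whole seedlings implies shoot and root. The photosystem II gene PSBW had a control level of 10.26 ± 0.04 and Rubisco activase (RCA) of 10.29 ± 0.05. The stomatal regulators SPCH and FMA stood at 5.36 ± 0.17 and 5.55 ± 0.16, and the root hair expansin EXPA7 at 4.38 ± 0.03. Over 12 arrays, the 2 measured root hair markers had mean levels of 3.14 and 4.32, and the lowest of 4 stomatal genes had 2.32. With array medians of 3.06 to 3.19 and no detection calls, the evidence for root tissue is weak. Seed and floral markers were not analysed here. In whole seedlings, fewer cells of a type and less RNA per cell cannot be told apart.

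A small part of the measured genes passed the threshold under water deficit, and most of the called changes were under 2-fold. In all, 203 genes were called (1.23% of those tested), 111 higher (0.671%) and 92 lower (0.556%), and in each of the 203 the control and water deficit arrays did not overlap, which was also so for 15.7% of all genes. Of the genes that rose, 41 did so at least 2-fold, 63 by 1.5 to 2-fold and 7 by less. Of those that fell, 33 did so at least 2-fold, 57 by 1.5 to 2-fold and 2 by less. Before adjustment 2128 genes (12.9%) had a p under 0.05. The median difference over all genes was 0.01, and 98% of them lay between -0.70 and 0.67. A mean level under 4 was found for 64.4% of all genes, but for 30 of the 111 that rose and 22 of the 92 that fell.

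**Figure D1:**
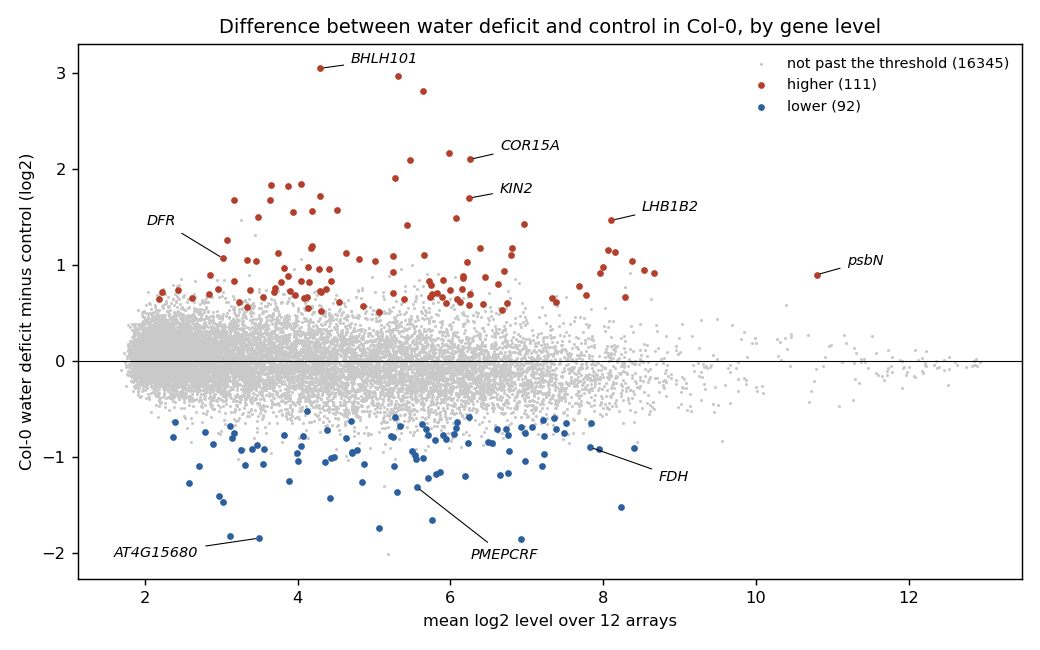
Each point is a gene, with its mean log2 level over 12 arrays on the horizontal axis and its log2 difference between Col-0 water deficit and control on the vertical axis. The 111 genes that rose are red, the 92 that fell are blue, and the 16345 genes not past the threshold are grey and lie mostly within 0.5 of 0.

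Without replicate 1 the total rose to 331 genes (2%), 244 higher (1.47%) and 87 lower (0.526%). Changes of at least 2-fold numbered 74 (0.447%) with replicate 1 and 96 (0.58%) without it. The lists overlapped in 169 genes, which is 83.3% of the 203 and 51.1% of the 331; 99 of them rose and 70 fell. None of the 203 changed sign, while 1 gene called only without replicate 1, AT1G25550, had the other sign with it. The 34 genes called only with replicate 1 (12 higher, 22 lower) had adjusted p-values of at most 0.0844 without it. Another 162 genes (145 higher, 17 lower) were called only without it. At the 244 genes called higher without it, replicate 1 had a median of 0.37 above the control mean, against 0.86 and 0.79 for the arrays that chose them. At the 87 called lower it stood at -0.89, against -0.83 and -0.82. It lay above all 3 controls at 69.3% of the 244, and at 39.4% of all genes, and below all 3 at 93.1% of the 87, and at 33.2% of all genes. Replicate 1 was thus as low as the other arrays at the falls and about midway at the rises. All of these values share the same controls. Of these genes, 131 of the 244 and 53 of the 87 were among the 4137 with the highest levels. There the median gene of replicate 1 was 0.28 lower than on the other water deficit arrays. The shares over all genes are not matched for level, and the part played by level was not tested. The count also depended on other arrays. It was 72, 84 and 88 without control replicates 1, 2 and 3, 130 and 126 without tori 35-7 water deficit replicates 2 and 3, and 461 without both arrays of narrow spread. Centring each array on its median gave 84 higher and 101 lower.

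**Figure D2:**
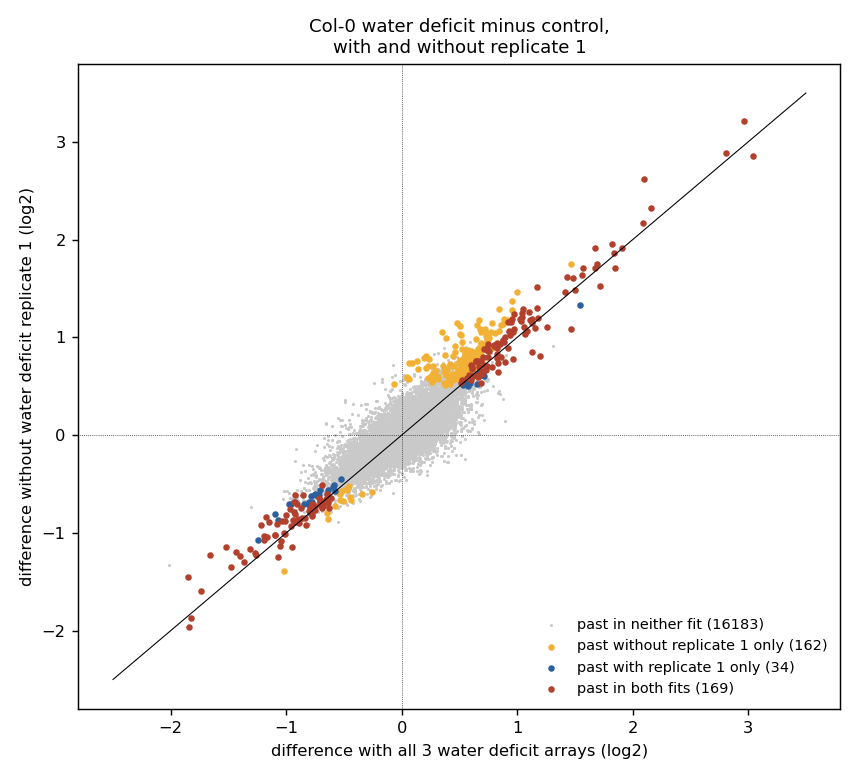
Each point is a gene, with its log2 difference from all 3 water deficit arrays on the horizontal axis and from replicates 2 and 3 alone on the vertical axis, and the line marks equal values. The 169 genes called in both fits follow the line in both directions, and the 162 called only without replicate 1 lie mostly above it among the rises.

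Most called genes carry only a locus identifier in the tables used here, 164 of the 203, and functions are given below for the 39 with a symbol and for members of the gene lists. The lists were written from general knowledge with earlier results of these data in view, so their counts are descriptions. Across all 1762 genes with a symbol, 2.21% were called, and across all genes 1.23%. The list counts below are to be set beside these shares, and single calls in a family are not read as a result about the family.

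**Figure D3:**
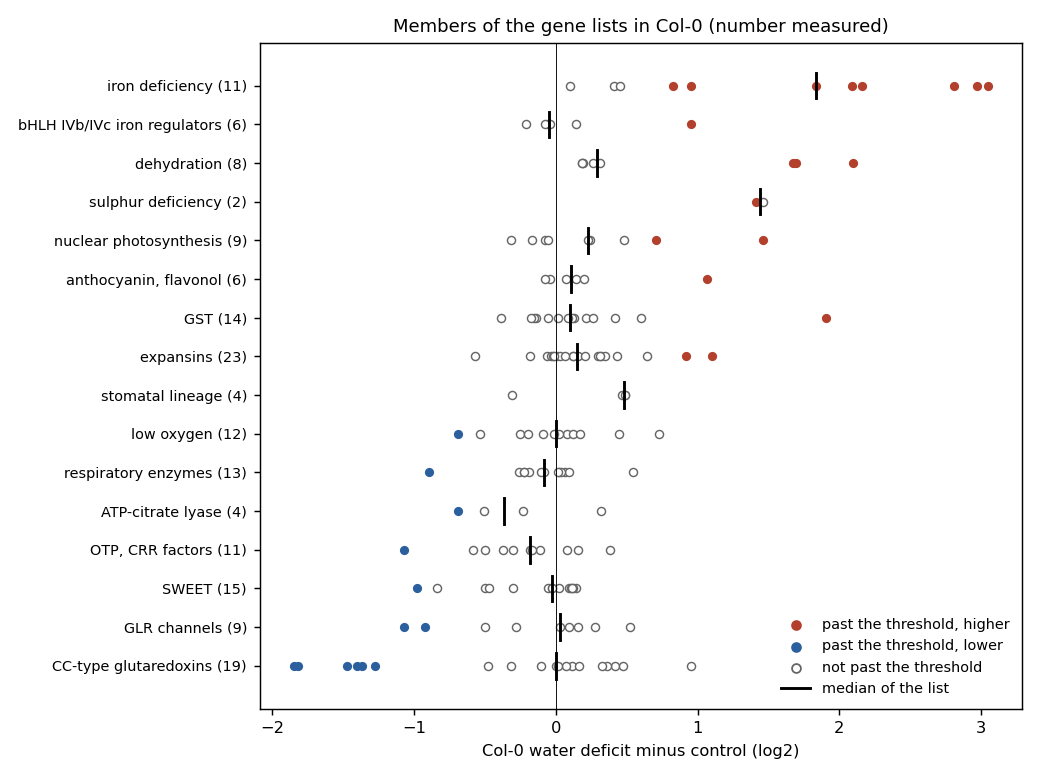
Each row is a gene list with the number of members measured, each point a member, and the horizontal axis its log2 difference between Col-0 water deficit and control; filled points passed the threshold and the black bar is the list's median. Iron-deficiency genes lie farthest to the right, while the medians of most lists are near 0 and single members stand apart.

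The iron-deficiency genes had the highest median of the reported lists. Of 34 listed genes 11 were measured, 8 rose and none fell, with a median difference of 1.84, and without replicate 1 the count was again 8 and the median 1.87. BHLH101, a bHLH factor that is induced when iron is short, had levels of 2.91, 3.20 and 2.94 on the control arrays and 6.44, 5.79 and 5.96 under water deficit. All 3 water deficit arrays lay far above the controls, replicate 1 highest, and the rise was 8.26-fold (3.05 ± 0.17, adjusted p = 5.43e-07). Without replicate 1 it was 2.86 ± 0.15. AT1G47395, entered in the list as an IRONMAN peptide gene, stood at 5.24, 5.50 and 5.45 in controls and 7.24, 7.69 and 7.74 under water deficit. AT1G47400, entered likewise, stood at 3.09, 3.24 and 3.27 and then at 4.97, 5.39 and 4.75. Neither pair of groups came within 1 unit of overlapping; the rises were 4.47-fold and 3.57-fold (2.16 and 1.84, and 2.32 and 1.87 without replicate 1), and the probe sets of these relatives are not certain to tell them apart. AT2G14247 and AT5G05250, listed as induced by iron deficiency, rose 7.02-fold and 4.25-fold (2.81 and 2.09, and 2.88 and 2.17 without replicate 1). AT1G13609 was the most variable, at 4.15, 4.85 and 3.26 in controls and 6.57, 8.44 and 6.15 under water deficit, with a rise of 2.97 ± 0.48 (adjusted p = 0.00638), or 3.21 without replicate 1.

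Further down the range of changes, iron regulators were divided. PYE (POPEYE), a bHLH factor that restrains iron-responsive genes, had control levels of 4.31, 4.19 and 4.22 and water deficit levels of 4.73, 5.44 and 5.43. Replicate 1 lay between the controls and the other water deficit arrays, so the rise was 0.96 ± 0.18 (adjusted p = 0.0175) with it and 1.19 ± 0.14 without it. AT1G74770 rose 1.77-fold (0.83 ± 0.17, adjusted p = 0.0323), and the same difference was found without replicate 1. PYE was the only one of 6 measured bHLH iron regulators of groups IVb and IVc to pass. ILR3, bHLH104, bHLH115 and bHLH34, group IVc factors that act above the induced ones, differed by -0.08, -0.04, -0.06 and -0.21, and bHLH121 by 0.15 (adjusted p between 0.609 and 0.948). Without replicate 1 these 5 differences ran from -0.32 to 0.37 and none passed. The remaining 3 members of the iron list, AT1G18910, AT3G12900 and AT3G07720, differed by 0.10, 0.41 and 0.45, and none passed without replicate 1 either.

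**Figure D4:**
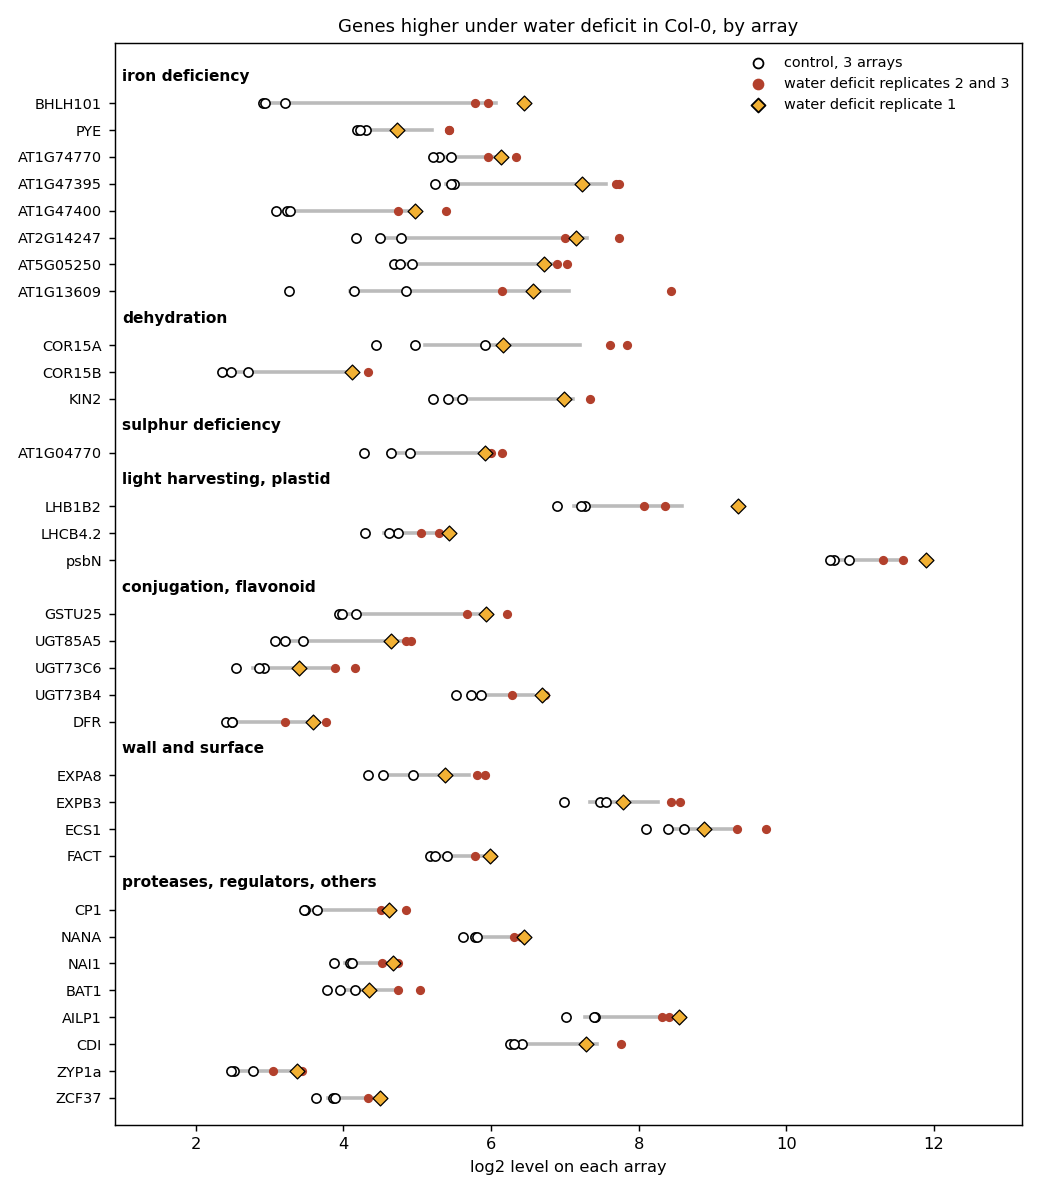
Log2 levels on each Col-0 array (horizontal axis) for 32 genes that rose, grouped by function: open circles are the 3 controls, red circles water deficit replicates 2 and 3, diamonds replicate 1, and the grey bar joins the group means. All water deficit points lie right of all controls, and the diamond is the lowest water deficit point for PYE, COR15A and EXPB3 but the highest for BHLH101, LHB1B2 and psbN.

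Genes of the dehydration and abscisic acid response rose in part. Of 30 listed genes 8 were measured, 3 rose and none fell, with the same 3 without replicate 1. COR15B, which encodes a chloroplast protein that protects membranes during drying and freezing, stood at 2.35, 2.71 and 2.48 in controls and 4.12, 4.33 and 4.12 under water deficit, a 3.19-fold rise (1.68 ± 0.17, adjusted p = 0.00014). KIN2, which responds to cold and to abscisic acid, went from 5.41, 5.61 and 5.22 to 6.99, 7.34 and 6.98 and rose 3.24-fold (1.70 ± 0.17). Without replicate 1 the differences of COR15B and KIN2 were 1.71 and 1.75. Both genes had tight groups with a clear gap between them. COR15A, the close relative of COR15B, varied far more, with 4.44, 5.91 and 4.97 in controls and 6.17, 7.61 and 7.84 under water deficit. The lowest water deficit value, replicate 1, exceeded the highest control by only 0.25, and the difference was 2.10 ± 0.42 (adjusted p = 0.0261) with that array and 2.62 ± 0.36 without it. The other 5 members had small positive differences that did not pass: 0.31 for the dehydrin LTI30, 0.26 for the dehydrin COR47, 0.18 for KIN1, the neighbour of KIN2 in sequence, and 0.19 each for AT1G16850 and AT3G17520. Probe sets of COR15A and COR15B, and of KIN1 and KIN2, may share signal. Genes of abscisic acid synthesis and signalling were not analysed here.

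Of 14 listed sulphur-deficiency genes, 2 were measured. AT1G04770 stood at 4.28, 4.64 and 4.91 in controls and between 5.92 and 6.14 on the 3 water deficit arrays and rose 2.66-fold (1.41 ± 0.18, adjusted p = 0.000987), with 1.46 without replicate 1. BGLU28, a beta-glucosidase that releases sulphur from glucosinolates when sulphur is short, differed by 1.46 ± 0.35 with levels of 3.41, 4.81 and 3.75 under water deficit against 2.50, 2.74 and 2.35. Its groups did not overlap, but it missed the threshold (adjusted p = 0.0628) and passed without replicate 1 (1.75, adjusted p = 0.0223). SIR, the sulphite reductase of sulphate assimilation, moved the other way, at 9.19, 9.19 and 9.24 in controls and 8.87, 8.52 and 8.79 under water deficit; its difference of -0.48 ± 0.13 missed the threshold (adjusted p = 0.088) and was -0.55 without replicate 1 (adjusted p = 0.0441).

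Among nuclear photosynthesis genes, 2 light-harvesting genes rose and the 7 other measured members did not pass. LHB1B2, a light-harvesting protein of the photosystem II trimers, had 7.28, 7.22 and 6.89 in controls and 9.35, 8.07 and 8.36 under water deficit. Replicate 1 was the highest array here by about 1 unit, so the rise of 1.46 ± 0.25 (adjusted p = 0.00861) fell to 1.08 ± 0.16 without it (adjusted p = 0.0021). LHCB4.2, a minor antenna protein of photosystem II, differed by 0.71 ± 0.15 (adjusted p = 0.0372), which became 0.62 without replicate 1 and no longer passed (adjusted p = 0.0611). Its relative LHCB4.1 did the reverse, with 0.48 (adjusted p = 0.12) and then 0.59 (adjusted p = 0.0365), while LHCB4.3, at levels under 3.5, differed by -0.17. The photosystem subunit genes PSAE-1, PSAN, PSBW and PSBY differed by -0.08, -0.05, 0.24 and 0.23 and RCA by -0.32, none past the threshold. With each array scaled to the same median and interquartile range, and in the fit of the 6 Col-0 arrays alone, 0 of the 9 members passed.

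Of 63 measured genes of the chloroplast genome, 1 rose and none fell, a share near that of all genes, and their median was -0.05 (0.06 without replicate 1, again with 1 rise). The gene that rose was psbN, needed to assemble photosystem II, with 10.85, 10.64 and 10.60 in controls and 11.89, 11.31 and 11.58 under water deficit, a 1.86-fold rise (0.90 ± 0.17, adjusted p = 0.0228) and 0.75 without replicate 1. psbT, encoded on the opposite strand next to psbN, differed by 0.23 ± 0.20, and the core genes psbA, psaA and psaB by 0.00, -0.06 and -0.04. None of 18 mitochondrial genome genes passed, with a median of 0.08. Unadjusted limma p-values were under 0.05 for 3 of the 63 chloroplast genes and 1 of the 18 mitochondrial genes, against 12.9% of all genes.

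Genes for conjugating enzymes, which attach sugars or glutathione to small molecules, rose singly within large families. Of 52 UDP-glycosyltransferase genes (UGT symbols) 3 rose and none fell, where 2.21% of all genes with a symbol were called, and the family median was -0.04. UGT85A5 stood at 3.07, 3.21 and 3.45 in controls and 4.65, 4.92 and 4.85 under water deficit, a 2.95-fold rise (1.56 ± 0.15, adjusted p = 8.43e-05). UGT73C6, which glycosylates flavonols and brassinosteroids, rose 2.06-fold (1.04 ± 0.19) and UGT73B4, which responds to pathogens and xenobiotics, 1.81-fold (0.86 ± 0.16). The differences without replicate 1 were 1.64, 1.25 and 0.80, all past the threshold. Of 14 glutathione transferase genes only GSTU25, of the stress-induced tau class, was called, and it rose 3.75-fold from 3.94, 4.17 and 3.98 to 5.93, 6.22 and 5.67 (1.91 ± 0.18, and 1.91 without replicate 1). Next to it, GSTU22 differed by 0.60 (adjusted p = 0.0902), and the family median was 0.10. None of 28 cytochrome P450 genes (CYP symbols) passed, with differences from -0.89 to 0.54. An unadjusted limma p under 0.05 was found for 6 of them, against 12.9% of all genes. Of the 6 measured anthocyanin and flavonol genes 1 rose. DFR, the reductase that commits flavonoids to anthocyanins, went from 2.49, 2.41 and 2.49 to 3.60, 3.77 and 3.22, a rise of 2.10-fold from a level near the low end of the array (1.07 ± 0.20, adjusted p = 0.0163, and 1.03 without replicate 1). The glycosyltransferases UGT78D1, UGT78D2 and UF3GT, which decorate flavonols and anthocyanins, differed by 0.07, -0.04 and 0.20.

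Wall and surface genes moved in both directions. Of 23 expansin genes, whose products loosen walls during growth, 2 rose, and without replicate 1 the same 2 passed. EXPA8 stood at 4.33, 4.53 and 4.95 in controls and 5.38, 5.92 and 5.81 under water deficit, a 2.15-fold rise (1.10 ± 0.21, adjusted p = 0.0202, and 1.26 without replicate 1). EXPB3 stood at 7.47, 7.55 and 6.99 and then at 7.78, 8.56 and 8.44, with replicate 1 only 0.23 above the highest control, and rose by 0.92 ± 0.20 (1.16 without replicate 1). EXPA16 and EXPA4 differed by 0.64 and 0.43, and the expansin-like gene EXLA1 by -0.57; none of the 3 passed. None of the 10 xyloglucan endotransglucosylase genes (XTH), which re-join wall polymers, passed either, and 0 of them had an unadjusted p under 0.05. ECS1, a wall protein gene, rose 1.93-fold (0.95 ± 0.20, adjusted p = 0.0328, and 1.16 without replicate 1). FACT, an acyltransferase of suberin-associated waxes, differed by 0.66 ± 0.14 (adjusted p = 0.0373, and 0.0516 without replicate 1). PMEPCRF, a pectin methylesterase, fell, from 6.21, 6.04 and 5.89 to 4.43, 5.11 and 4.66. Its groups were separated by 0.78, and its 2.49-fold fall (-1.31 ± 0.17, adjusted p = 0.000987) was the largest among genes with a symbol; without replicate 1 the difference was -1.16.

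The remaining genes with a symbol that rose have scattered functions. CP1, a papain-type cysteine protease, had 3.49, 3.64 and 3.47 in controls and 4.61, 4.85 and 4.50 under water deficit and rose 2.18-fold (1.13 ± 0.13, adjusted p = 0.000336). NANA, an aspartic protease of the chloroplast, rose 1.57-fold with groups that differed by at least 0.50. AILP1, an aluminium-induced protein gene, stood at 7.01, 7.40 and 7.39 and then at 8.55, 8.32 and 8.41 and rose 2.23-fold, and CDI, a gene needed for pollen tube growth, rose 2.15-fold. Without replicate 1 the differences of CP1, NANA, AILP1 and CDI were 1.15, 0.62, 1.09 and 1.18, all past the threshold. NAI1, the bHLH factor that sets up endoplasmic reticulum bodies, differed by 0.62 ± 0.14 (adjusted p = 0.0408) and by 0.60 without replicate 1 (adjusted p = 0.0497). BAT1, an acyltransferase that acts on brassinosteroids, rose 1.68-fold, with 0.93 without replicate 1. AT2G40620, the leucine-zipper factor bZIP18, rose 1.59-fold (0.66, and 0.60 without replicate 1). ZYP1a, a protein of meiotic chromosome pairing, and ZCF37 had differences of 0.69 and 0.65 that passed with replicate 1 and not without it (adjusted p = 0.066 and 0.0526).

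Among the genes that fell, CC-type glutaredoxins formed the largest listed group. Of 20 listed genes 19 were measured, 6 fell and none rose. The median of the 19 was 0.00, and -0.13 without replicate 1, so the called falls belonged to a subset. Counting either direction, 12 of the 19 had an unadjusted limma p under 0.05, against 12.9% of all genes. Of the 6 that fell, 5 are the close relatives AT4G15660 to AT4G15700, whose probe sets may not separate them. AT4G15690, at 3.51, 3.17 and 3.48 in controls and 1.97, 2.18 and 2.19 under water deficit, ended among the lowest levels on the array and fell by 1.27 ± 0.16 (adjusted p = 0.00105). AT5G18600, the member outside that cluster, was the brightest, with 6.20, 5.96 and 5.70 and then 4.45, 4.72 and 4.59, and fell by 1.37 ± 0.20. The same 6 passed without replicate 1, with differences from -1.96 to -1.20. A seventh member moved the other way: AT1G06830 had 3.30, 3.49 and 3.41 in controls and 3.70, 4.68 and 4.68 under water deficit, differed by 0.96 ± 0.26 (adjusted p = 0.0937) and passed only without replicate 1 (1.28, adjusted p = 0.00585). GRX480, known for its part in salicylic acid signalling, differed by 0.41 and the floral glutaredoxins ROXY1 and ROXY2 by -0.11 and 0.12, none past the threshold.

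**Figure D5:**
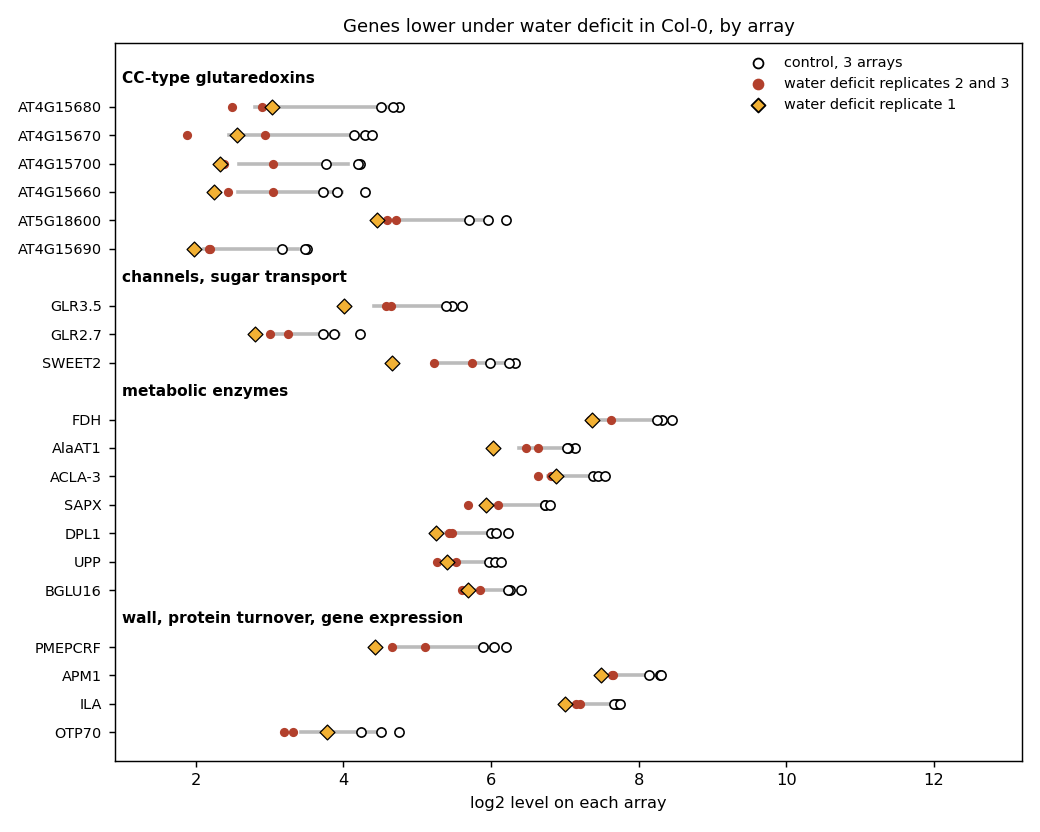
Log2 levels on each Col-0 array (horizontal axis) for 20 genes that fell, with open circles for the 3 controls, red circles for water deficit replicates 2 and 3, diamonds for replicate 1, and a grey bar between the group means. All water deficit points lie left of all controls, and the diamond is the lowest point for GLR3.5, SWEET2 and AlaAT1.

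Membrane transport genes were among the falls. Of 9 glutamate receptor-like channel genes (GLR), which conduct calcium and other cations, 2 fell, and 1 without replicate 1. The median of the 9 was 0.03 (-0.25 without replicate 1). Positive differences were found for 5 of them, the highest 0.52, and none passed as a rise. GLR2.7 stood at 4.23, 3.72 and 3.87 in controls and 2.80, 3.01 and 3.25 under water deficit (-0.92 ± 0.16, adjusted p = 0.0107) and kept its call without replicate 1 (-0.81). GLR3.5 went from 5.60, 5.47 and 5.38 to 4.01, 4.58 and 4.65; replicate 1 was lowest, and without it the difference of -1.07 became -0.87 (adjusted p = 0.055). GLR3.3, a channel of wound signalling, differed by -0.50 (adjusted p = 0.368). Of 15 sugar transporter genes of the SWEET family 1 was called: SWEET2, a vacuolar transporter of root cells, had 5.99, 6.33 and 6.24 and then 4.66, 5.75 and 5.22. The call rested on replicate 1, since -0.98 ± 0.22 (adjusted p = 0.0457) became -0.70 without it (adjusted p = 0.0628), and it was also lost in 10 of the 11 fits that left out another array. SWEET11, a phloem-loading transporter, differed by -0.84 (adjusted p = 0.148) and SWEET1 by -0.50 (adjusted p = 0.161). The median of the 15 was -0.03, and 6 had positive differences, the highest 0.14.

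Named genes of central metabolism fell by less than 2-fold. FDH, the mitochondrial formate dehydrogenase, had 8.32, 8.25 and 8.45 in controls and 7.36, 7.34 and 7.63 under water deficit, a fall of 0.90 ± 0.13 (adjusted p = 0.00304, and -0.86 without replicate 1). It was the only 1 of 13 respiratory enzyme genes to pass, and those of succinate, malate and isocitrate dehydrogenase differed by -0.26 to 0.10. The median of the 13 was -0.08, and 6 had positive differences, the highest 0.55. ACLA-3, a subunit of ATP-citrate lyase, which makes cytosolic acetyl-CoA, went from 7.39, 7.45 and 7.54 to 6.88, 6.63 and 6.81 (-0.69 ± 0.13, adjusted p = 0.0167, and -0.74 without replicate 1). The other 3 measured subunits did not pass: ACLA-1 differed by -0.50, ACLB-1 by -0.23 and ACLA-2 by 0.32, the last with water deficit levels from 4.09 to 5.35 and a difference of -0.02 without replicate 1. ACS, the plastid enzyme that makes acetyl-CoA from acetate, differed by -0.55 (adjusted p = 0.055) and passed without replicate 1 (-0.58, adjusted p = 0.0445). AlaAT1, an alanine aminotransferase induced by low oxygen, fell by 0.69 ± 0.15 (adjusted p = 0.0372), to 6.02 on replicate 1 against 6.47 and 6.64, and by 0.51 without that array. Of 12 measured genes of the low-oxygen response it alone passed with all arrays. Without replicate 1 it passed together with a rise, that of AT4G27450, which had the highest difference of the list (0.73, adjusted p = 0.121, and 0.89, adjusted p = 0.0468, without replicate 1). PDC2, a pyruvate decarboxylase, differed by -0.54 (adjusted p = 0.144).

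The same range held SAPX, the stromal ascorbate peroxidase that removes hydrogen peroxide, which went from 6.73, 6.73 and 6.80 to 5.94, 5.69 and 6.10 (-0.84 ± 0.15, adjusted p = 0.012). DPL1, the sphingoid phosphate lyase, fell by 0.71 ± 0.12, and UPP, which salvages uracil in the plastid, by 0.65 ± 0.13. APM1, an aminopeptidase linked to auxin transport, went from 8.29, 8.30 and 8.15 to 7.50, 7.65 and 7.64 and fell by 0.65 ± 0.12 (adjusted p = 0.0172). These 4 calls held without replicate 1, with differences from -0.85 to -0.60. BGLU16, a beta-glucosidase, and ILA, a translation-linked protein of innate immunity, differed by -0.58 and -0.59, just past the threshold (adjusted p = 0.0497 and 0.0499), and missed it without replicate 1 (0.0586 and 0.0766). OTP70, a pentatricopeptide repeat protein for splicing of a chloroplast transcript, had 4.51, 4.75 and 4.24 in controls and 3.78, 3.20 and 3.32 under water deficit. It fell by 1.07 ± 0.17 (adjusted p = 0.00638), more so without replicate 1 (-1.24), while none of the other 10 measured OTP and CRR organelle RNA factors passed. AT5G55580, the chloroplast mTERF9, had one of the smallest called falls, 1.44-fold, and was not called without replicate 1 (-0.44, adjusted p = 0.0757).

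Leaving out replicate 1 brought in 16 named genes that rose and 4 that fell. On replicate 1 some of the rising genes were at the level of the controls. SIS, a salt-induced gene, had 4.57, 4.95 and 5.06 in controls, 4.80 on replicate 1 and 6.09 and 6.21 on the other arrays (1.29 without replicate 1, adjusted p = 0.000562, against 0.84 and 0.174 with it). BZIP34, a leucine-zipper factor, showed the same layout, with 5.07 on replicate 1 against 6.17 and 6.18. For THI2.2, a thionin, and OSM34, an osmotin-like defence protein, replicate 1 lay just above the controls, by 0.11 and 0.06, and they differed by 1.19 and 0.88 without it. The growth regulator TCP15, the brassinosteroid factor BIM1, the flowering factor FD, the autophagy gene ATG8B, the signalling peptide gene CLE14 and the defensin gene PDF2.1 also passed without replicate 1 alone, by 0.81, 0.57, 0.78, 0.53, 0.83 and 1.46. Besides ACS and SIR, the falls were those of Cpn60beta2, a chloroplast chaperonin (-0.67), and RAD5, a DNA repair helicase (-0.68).

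Several listed groups had no member past the threshold. The stomatal regulators MUTE, FMA and STOMAGEN differed by 0.49, 0.47 and 0.49, with adjusted p-values of 0.163, 0.269 and 0.144, and SPCH by -0.31, where replicate 1 was at 4.13 and the other water deficit arrays at 5.49 and 5.52, so that without replicate 1 the difference turned to 0.15 (adjusted p = 0.906). Of these 4 genes 3 had an unadjusted limma p under 0.05, against 12.9% of all genes, and none passed without replicate 1. The root hair expansins EXPA7 and EXPA18 differed by 0.01 and 0.15. No call was made among 6 genes of the auxin response (-0.06 to 0.40), 4 of the jasmonate response (-0.22 to 0.12), 3 of heat shock (0.03 to 0.28) or 7 WRKY factors (-0.54 to 0.33); 3 of the WRKY genes had an unadjusted p under 0.05, and none of the auxin, jasmonate and heat shock genes did. Of 3 measured nitrate regulators none passed with all arrays, and AT1G25550, at 7.96 on replicate 1 against 9.65 and 9.77, turned from -0.06 to 0.52 without it and then passed (adjusted p = 0.0498). The reference genes GAPC2 and AT4G34270 differed by -0.31 and -0.20.

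The same media were compared in tori 35-7, which has controls of its own, and 192 genes were called there (1.16%). Of the 111 rises of Col-0, 103 were also higher in tori 35-7 and 49 passed there. Of the 92 falls, 86 were lower and 25 passed, and none of the rises or falls passed in the opposite direction. The tests in both genotypes used the same estimate of each gene's spread, so passing in both is not independent. The share of all genes with the same sign in both genotypes is not given here. Those 203 genes were chosen by their Col-0 values, and their median differences were 0.88 in Col-0 and 0.66 in tori 35-7 for the rises and -0.90 and -0.52 for the falls. For the 169 genes called with and without replicate 1, 93 of 99 and 64 of 70 had the same sign in tori 35-7. The test of the difference between the responses called none of the 203. It called 1 gene of the 16548 (0.00604%), a gene not called in Col-0, and none without replicate 1. Of all genes, 1006 (6.08%) had an unadjusted p under 0.05 for this difference. So did 38 of the 111 rises and 44 of the 92 falls. Because the 203 were chosen by their Col-0 values, their shares cannot be read against that of all genes. Nearest to the threshold among the named genes were OTP70 (-1.07 ± 0.17 in Col-0 and 0.13 ± 0.17 in tori 35-7), AT1G04770 (1.41 ± 0.18 and 0.06 ± 0.18) and CP1 (1.13 ± 0.13 and 0.26 ± 0.13), each with an adjusted p of 0.326 for the difference. UGT85A5 (1.56 and 1.57), AILP1 (1.16 and 1.18), PMEPCRF (-1.31 and -1.28) and FDH (-0.90 and -0.84) had close values in both genotypes, with standard errors of the difference from 0.18 to 0.24.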

How the data were processed

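RNA of 12 samples, 100 ng each, was put on Affymetrix Arabidopsis arrays according to the labels. Their table has 38408 probe sets and 12 columns, with values from 1.13 to 13.2 and no scale named. The deposited values were read as log2 levels from this range; per the submitters' processing notes, the authors used version 4.0.1 of the Transcriptome Analysis Console. How background was corrected and how probe sets were normalized and summarized is not given in the sources. No detection calls were used, so low levels may be background. All value columns were mapped to a sample by their sample identifiers.

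Of the probe sets, 16722 were annotated to 1 gene by the platform annotation, 759 to several and 20927 were unnamed. They gave 16548 genes, the brightest probe set standing for each of the 148 genes with several; 16505 matched the RefSeq table of assembly TAIR10.1 and 1762 had a symbol other than their locus. limma 3.58.1 in R 4.3.3 fitted 1 mean per group over all 12 arrays, and contrasts tested water deficit against control in each genotype and the difference between genotypes (two-sided, Benjamini-Hochberg over all genes, threshold 0.05). Tested on simulated data of 16548 genes for the Col-0 comparison, the fit found 84% of genes changed 2-fold and 100% of those changed 4-fold, and made 9 false calls. Few genes were changed in the simulation, so the 9 are to be set against the calls made, not against the 16548. Its noise was independent, with the same spread on every array for each gene. It held no array like replicate 1, so these rates need not hold for the real arrays. No label ties the replicates to separate cultures; the p-values may then reflect technical spread alone, and 3 arrays per group limit the precision. Same-numbered Col-0 arrays were not treated as pairs.

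Genes were named if they were among the 40 largest called changes in a direction and had a name, were called members of a list or its nearest other members, or had the smallest called changes. Genes called only without replicate 1, and further list members, were named after their values were seen. The members and lists were chosen with earlier results of these data known. Lists matched by words in gene names picked up unrelated genes and are not reported; lists by locus and by symbol are. Promoter motifs were not searched. Alternatives covered scaling, centring, a filter on low levels, the priors, array weights, the samples fitted, a replicate block and probe set averaging; 3 were added after seeing the data.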

Additional observations from a re-analysis of the deposited data

Results flagged for a closer look

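One gene passed the test of the difference between the genotypes' responses. AT3G10040 (HRA1, HYPOXIA RESPONSE ATTENUATOR1) stood at 2.20, 2.58 and 2.70 on the Col-0 control arrays and 2.90, 2.96 and 2.96 under water deficit, a difference of 0.45 ± 0.22 that did not pass (adjusted p = 0.43). In tori 35-7 it stood at 4.59, 5.53 and 5.56 in controls and 3.31, 3.10 and 3.53 under water deficit. The 4.59 was on tori 35-7 control replicate 1, the other array of narrow spread. The groups lay in opposite order in the genotypes, and the tori 35-7 controls were the highest of all 12 arrays. The difference between the responses, tori 35-7 minus Col-0, was -2.36 ± 0.32 (limma, adjusted p = 0.0436). Without replicate 1 it was -2.38 with an adjusted p of 0.0823. It passed in 1 of 12 fits that each left out an array, with values from -2.68 to -2.19 and adjusted p-values from 0.000334 to 0.262. In 9 other settings it passed in 8, with values from -2.70 to -2.31. It missed with each array centred on its median (limma, adjusted p = 0.0575). These settings reuse the same arrays and are not independent. The cause was not tested.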

How the results depend on the processing

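The count of 203 called genes was 325 with quantile normalization, 311 with array weights and 39 with the 6 Col-0 arrays alone, and 74 of the 203 changed at least 2-fold. It was 329 over all probe sets and 461 without both arrays of narrow spread, alternatives chosen after seeing the data. Leaving out 1 array at a time gave 72 to 331. It was 150 (102 higher, 48 lower) with the 6 Col-0 arrays less replicate 1, also chosen after seeing the data, and 185 to 216 in the remaining settings. The share of called genes that were higher was 54.7%, but 45.4% with each array centred on its median, 73.7% without Col-0 water deficit replicate 1 and 36.9% and 44.4% without replicates 2 and 3. The 1 gene called for the difference between genotypes became 0 with centring and over all probe sets, 2 with array weights and without both narrow arrays, and 0 to 2 when 1 array was left out. Of the iron list's 8 rises, 5 passed with the 6 Col-0 arrays and 6 to 8 when 1 array was left out. The glutaredoxin list kept 5 to 6 falls and the dehydration list 2 to 3 rises. The 2 nuclear photosynthesis rises became 0 with scaled arrays and with the 6 Col-0 arrays, 1 with array weights, 1 with the 6 arrays less replicate 1, and 0 to 2 when 1 array was left out. The causes were not tested. Of the 52 called genes with a symbol or on a list by locus, none reversed. Of these, 8 missed the threshold without replicate 1, 15 with scaled arrays and 33 with the 6 Col-0 arrays. Some named genes not called with all arrays did change sign without replicate 1, as given above for AT1G25550, SPCH and ACLA-2. With the replicate block the count was 216. Same-numbered Col-0 arrays had correlations of 0.0364, 0.0215 and 0.0661 between their deviations, and different-numbered ones from -0.0778 to 0.0211. So few small values cannot settle whether the numbers pair the arrays. Between Col-0 water deficit and tori 35-7 control, same-numbered arrays had 0.403, 0.258 and 0.177. Different-numbered arrays of these groups had -0.326 to 0.195, with 0.195 and 0.15 between replicates 2 and 3. Deviations within a group of 3 sum to 0, so these values are tied to each other. They cannot show whether the numbers pair these arrays. Levels near the low end of the array limit what can be seen there: among the 4137 genes with the lowest levels 2 rose and 0 fell.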
